A study of Mus musculus with 135 samples.

Results

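Old wild-type (WT) oocytes were compared with young WT oocytes over 26 single-cell libraries, out of 94 oocyte libraries with counts and 135 samples described. The members were chosen by title within 1 of the 2 deposited count tables, the one whose oocytes carry purely numerical names. The old WT group had 12 oocytes of mice aged 10 to 12 months, in set Old_WT_365 (5 oocytes) and set Old_WT_247 (7 oocytes). The young WT group had 14 oocytes of mice aged 2 to 4 months, all of set Young_WT__246. A set is the oocytes whose titles share a first number. Every one of these oocytes was a metaphase II (ovulated) egg of a C57BL6/129 mouse, sequenced singly from total RNA, with no mutant allele and no agent named in the labels. The wider series compares Tet1 and Tet2 mutant oocytes with WT ones, and the comparison of ages within WT asks how the egg transcriptome differs with maternal age.

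The set was taken as the replicate, because oocytes of 1 set share a name in the labels and are not separate replicates of an age. The labels do not tie a set to an animal, so the p-values measure the spread between sets, and the young set was assumed to vary like the sets of the other groups. With 1 young set in this table, age and whatever else is peculiar to set Young_WT__246 cannot be told apart. The other count table holds 24 young WT oocytes with the same strain and age labels, in sets T148, T211 and T231 (8 oocytes each, the T series). Their levels are given beside the results, and they lend the fit that made the calls their spread only. Young oocytes Young_WT__246_10, Young_WT__246_11 and Young_WT__246_15 are rich in ribosomal protein transcripts, and the results are also given without them.

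The ovulated egg is transcriptionally silent and works from messenger RNA stored during oocyte growth, which is masked, translated and degraded in a programmed order until the embryonic genome is switched on. With maternal age, eggs of mammals lose cohesin from their chromosomes, attach chromosomes to the spindle less reliably and become aneuploid more often. Mitochondrial function, chromatin marks and the upkeep of stored RNA are the other processes most often studied in ageing eggs.

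Some of the genes called below were close to silent either in set Young_WT__246 or in the old sets, and the start regions of 2 of these on chromosome 17 are shown first. Enpp4, of the ecto-nucleotide pyrophosphatase/phosphodiesterase family, rose in old oocytes, and Ttbk1, a tau tubulin kinase, fell. The sequences are the 250 bases before each RefSeq gene start in GRCm38.p6, both on the minus strand, chr17:44105810-44106059 for Enpp4 and chr17:46487676-46487925 for Ttbk1. Capitals mark CCAAT and GGGCGG, searched with TATAA on both strands, each motif counted separately where matches overlap.
Enpp4: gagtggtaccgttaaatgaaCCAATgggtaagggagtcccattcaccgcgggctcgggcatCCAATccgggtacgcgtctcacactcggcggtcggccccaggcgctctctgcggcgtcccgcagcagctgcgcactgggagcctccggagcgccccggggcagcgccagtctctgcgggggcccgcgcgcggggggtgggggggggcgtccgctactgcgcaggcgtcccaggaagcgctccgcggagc
Ttbk1: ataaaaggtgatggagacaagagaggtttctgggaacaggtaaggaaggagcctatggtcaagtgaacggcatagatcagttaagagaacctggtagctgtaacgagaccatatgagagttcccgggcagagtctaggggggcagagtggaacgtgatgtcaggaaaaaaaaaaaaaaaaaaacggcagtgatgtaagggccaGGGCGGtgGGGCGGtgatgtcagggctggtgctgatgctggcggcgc
Enpp4 held 2 matches of CCAAT, and Ttbk1 held 2 of GGGCGG. Of the 45 genes called below, 26 had such a window. A gene was counted for a motif when any of its windows held it, and the percentages are over single windows. Counts and percentages may therefore differ in kind. CCAAT lay in 13 of the 26 genes (5 of 8 higher and 8 of 18 lower genes), against 33.8% of all 32851 windows. GGGCGG lay in 11 (3 of 8 higher, 8 of 18 lower), against 32.7%, and TATAA in 6 (1 higher, 5 lower), against 22.8%.

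Library totals ran from 2971657 to 10362312 counts in the 12 old oocytes and from 3706004 to 9775977 in the 14 young ones. All 15 oocyte markers were detected in every set, with medians of their summed level of 32008 and 32085 CPM in sets Old_WT_365 and Old_WT_247, against 33261 CPM in set Young_WT__246. The 17 cumulus and granulosa markers summed to 19.3 to 61.2 CPM over old oocytes and 23.8 to 77.6 CPM over young ones. The 13 macrophage markers summed to 13.5 to 26.2 CPM over old oocytes and 18.8 to 30.4 CPM over young ones, and no erythroid marker was expressed highly enough to be tested. The median number of genes detected per oocyte was 16819 and 17147 in sets Old_WT_365 and Old_WT_247 and 17458.5 in set Young_WT__246 (2-sided exact permutation test over the 3 set medians, p = 0.667). The 50 most abundant genes of an oocyte held a median of 22.2% and 22.7% of counts in the old sets and 26.8% in the young set (p = 0.33 in the same exact test, the smallest it can give with 2 sets against 1), and 25.4% in the young set without the 3 oocytes.

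Of 14033 genes tested, 45 differed between old and young WT oocytes (0.321%): 15 were higher in old oocytes (0.107%) and 30 lower (0.214%), by edgeR's quasi-likelihood test at an adjusted p under 0.05. At an unadjusted p under 0.05, 546 genes were higher and 1074 lower. Without the 3 ribosome-rich young oocytes 16 of 13821 genes were called (0.116%), 11 higher (0.0796%) and 5 lower (0.0362%), and all 16 were among the 45. Leaving out oocyte Young_WT__246_11 alone left 21 calls, 13 higher and 8 lower, all of them among the 45. With only set Old_WT_247 as the old group 13 genes were called, and with only set Old_WT_365 as the old group 5 were called. The 45 genes fell mostly into 3 kinds: genes nearly absent from set Young_WT__246, genes nearly absent from the old sets, and transcripts of ribosomal, respiratory and other genes that were high in a few young oocytes.

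The genes that rose in old oocytes were led by Pxdn, which encodes peroxidasin, the peroxidase that cross-links collagen IV of basement membranes (ENSMUSG00000020674, chr12:29937608-30017658, mm10). Pxdn stood at 37.1, 36.7, 30.4, 35.6 and 32.7 CPM in the 5 old oocytes of set Old_WT_365. In the 7 old oocytes of set Old_WT_247 it ran from 33.2 through a median of 44.8 to 68.6 CPM. In the 14 young oocytes it ran from 0 through 0.152 to 2.26 CPM. Every old oocyte lay above every young oocyte of set Young_WT__246, with no overlap. Summed per set, Pxdn had 34.3 and 46.0 CPM in the old sets against 0.398 CPM in the young set, a log2 change of 6.64 ± 0.51 (SE, 2 sets against 1) with an adjusted p of 0.00276 in edgeR, and 0.00325 without the 3 oocytes. The 24 T-series young oocytes ran from 29.7 through 43.4 to 89.3 CPM, which covered the old range and lay above every young oocyte of set Young_WT__246.

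Cyp39a1 encodes a cytochrome P450 that hydroxylates the oxysterol 24-hydroxycholesterol (ENSMUSG00000023963, chr17:43667425-43751431). It stood at 24.5, 25.6, 17, 31.1 and 37 CPM in the old oocytes of set Old_WT_365. The old oocytes of set Old_WT_247 ran from 26.2 through 44 to 57.1 CPM, and the young oocytes from 0 through 0.239 to 2.39 CPM. The ages did not overlap, and the log2 change was 6.15 ± 0.64 with an adjusted p of 0.00928 in edgeR (0.0148 without the 3 oocytes). T-series young oocytes ran from 15.1 through 32.8 to 53.4 CPM, across the old range.

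Tex15, needed in mouse male germ cells for meiotic recombination and transposon silencing (ENSMUSG00000009628, chr8:33516738-33585582), stood at 68, 64.6, 43.9, 40.3 and 65.4 CPM in the old oocytes of set Old_WT_365. Set Old_WT_247 ran from 26.9 through 58.7 to 112 CPM, and set Young_WT__246 from 0 through 0.753 to 1.49 CPM. All 12 old oocytes lay above all 14 young ones. Its log2 change was 6.61 ± 0.80 with an adjusted p of 0.0119 in edgeR, 0.0223 without the 3 oocytes and 0.0731 without set Old_WT_247. T-series young oocytes ran from 6.09 through 27.2 to 71 CPM, so that some lay below every old oocyte and none reached down to set Young_WT__246.

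Enpp4 (ENSMUSG00000023961, chr17:44096308-44105809) ran from 5.81 through 16.7 to 21.3 CPM in set Old_WT_365 and from 13.4 through 16.9 to 24.2 CPM in set Old_WT_247. In set Young_WT__246 it ran from 0 through 0.539 to 2.34 CPM, below every old oocyte, and in the T series from 4.83 through 11.7 to 24.7 CPM. Its log2 change was 4.63 ± 0.53, with an adjusted p of 0.010 in edgeR, 0.0178 without the 3 oocytes and 0.0676 without set Old_WT_247. Ssr1 encodes a subunit of the translocon-associated protein complex of the endoplasmic reticulum (ENSMUSG00000021427, chr13:37966605-37994217) and was lower in set Young_WT__246 without being absent. It ran from 20.5 to 38.2 CPM over the 12 old oocytes and from 0.588 through 4.44 to 6.44 CPM over the 14 young ones, with T-series young oocytes at 14.4 to 33.4 CPM. The log2 change was 2.83 ± 0.39 with an adjusted p of 0.0203 in edgeR and 0.045 without the 3 oocytes. Without either old set the call was lost, at adjusted p of 0.0707 without set Old_WT_365 and 0.129 without set Old_WT_247.

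Ankrd66, a gene with ankyrin repeats, had 286 counts over the 12 old oocytes, each of which had some, and 0 counts over the 14 young ones. It was at least 120-fold higher in old oocytes, against a floor of 3 counts summed over the young group, with an adjusted p of 0.00276 in edgeR. Its T-series sets held 2.82, 4.21 and 3.28 CPM, against 6.08 and 4.40 CPM in the old sets. H2-T-ps, a pseudogene of the major histocompatibility complex class I region that overlaps BC023719, rose by 6.00 ± 0.61 on the log2 scale (14.6 and 10.5 CPM in old sets, 0.192 CPM in the young set, adjusted p = 0.00928). Tmem222, a membrane protein gene, rose by 5.56 ± 0.60 (4.48 and 3.69 CPM, against 0.0824 CPM, adjusted p = 0.00928). The predicted gene Gm9625 rose by 5.90 ± 0.70 (7.98 and 7.28 CPM, against 0.124 CPM, adjusted p = 0.0111). Pxdn, Ankrd66, H2-T-ps and Cyp39a1 were called in edgeR, DESeq2 and limma and with either old set alone, and of 12 alternatives lost their call in 1, a fit with an added term for the naming series. Gm9625 lost its call without set Old_WT_247 (adjusted p = 0.0676), whereas Tmem222 was called without either old set (adjusted p = 0.0332 without set Old_WT_365 and 0.0418 without set Old_WT_247).

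The remaining higher genes included pairs that overlap on the genome and share reads by the authors' counting. 7420700N18Rik stood at 30.7 to 85.2 CPM over old oocytes and 0 to 0.514 CPM over young ones, a log2 change of 9.10 ± 1.28 (adjusted p = 0.022, and 0.0486 without the 3 oocytes). Gm19096 overlaps it and had 2 counts in the young set, a CPM ratio of 873 with a 95% counting interval of 241 to 7219, and it lost its call without the 3 oocytes (adjusted p = 0.0545). Gm46411, which overlaps the transcription factor gene Rreb1, rose by 3.72 ± 0.50 (4.74 and 6.55 CPM in old sets, 0.426 CPM in the young set, adjusted p = 0.0195). With only 1 old set, 7420700N18Rik, Gm19096, Gm46411 and Ssr1 all lost their calls. The adjusted p of Gm46411 was 0.0533 without set Old_WT_365 and 0.129 without set Old_WT_247, and that of 7420700N18Rik and of Gm19096 was 0.0707 and 0.129. Named outside the rule, after their values were seen, Cep250 (a centrosomal linker protein) had 3 counts in the young set and a ratio of 32.9 (interval 10.8 to 163), and 1700104B16Rik and the unnamed ENSMUSG00000087594 had none, which makes them at least 29.1-fold and 21.5-fold higher in old oocytes. Cep250 and 1700104B16Rik lost their calls when either old set was left out, and ENSMUSG00000087594 lost its call without set Old_WT_365 (adjusted p = 0.0623) and was not tested without set Old_WT_247. With Gm19096 these were also the 4 higher genes that lost their call without the 3 oocytes, at adjusted p = 0.0918 for Cep250 and 1700104B16Rik and 0.0599 for ENSMUSG00000087594.

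**Figure D1:**
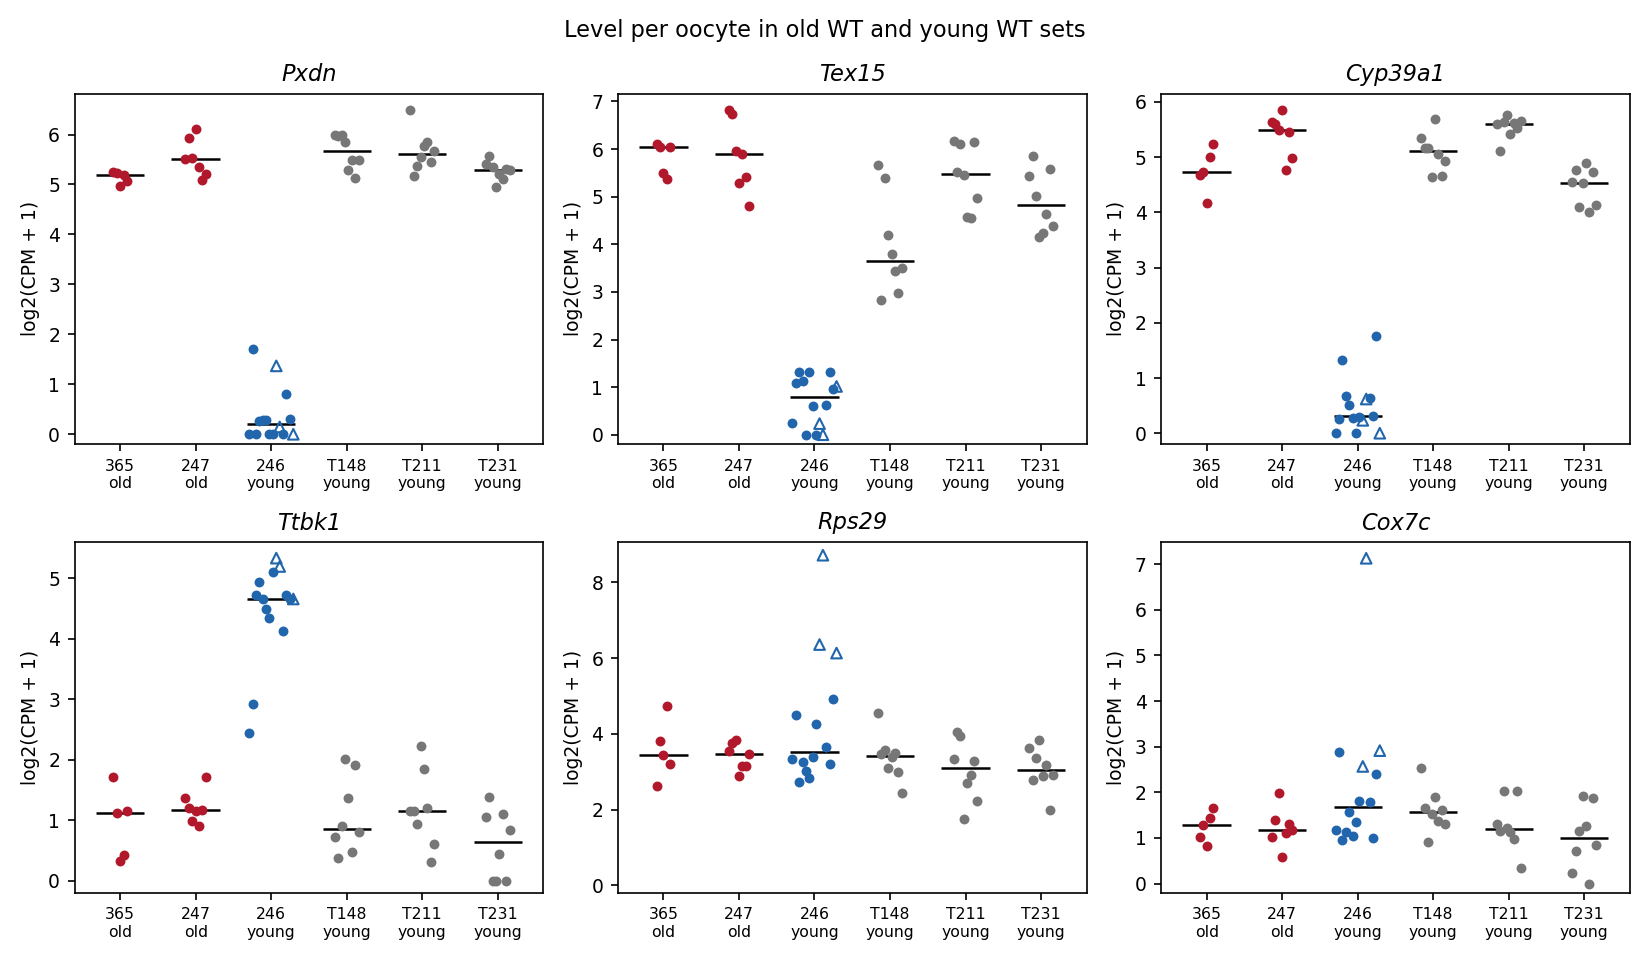
CPM of 6 named genes in single oocytes, as log2(CPM + 1), for sets Old_WT_365 and Old_WT_247 (red), set Young_WT__246 (blue, with open triangles for Young_WT__246_10, Young_WT__246_11 and Young_WT__246_15) and the young T-series WT sets T148, T211 and T231 (grey); black bars are set medians. Pxdn, Tex15 and Cyp39a1 sit near 0 only in set Young_WT__246, and Ttbk1 is raised only there. Rps29 is raised in the open triangles, and Cox7c mainly in that of Young_WT__246_11.

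A smaller group was nearly absent from old oocytes. Ttbk1 (ENSMUSG00000015599, chr17:46442448-46487675), best known in mouse and human brain, stood at 2.27, 1.18, 0.254, 0.340 and 1.22 CPM in the old oocytes of set Old_WT_365. The old oocytes of set Old_WT_247 ran from 0.872 through 1.24 to 2.28 CPM, and the young oocytes from 4.47 through 24.4 to 39.4 CPM. Every young oocyte lay above every old one. Without the 3 ribosome-rich oocytes the young oocytes ran from 4.47 through 24.4 to 33.3 CPM. Its log2 change was −4.22 ± 0.55 with an adjusted p of 0.0173 in edgeR, 0.0359 without the 3 oocytes, 0.118 without set Old_WT_365 and 0.149 without set Old_WT_247. T-series young oocytes ran from 0 through 0.895 to 3.69 CPM, all below the lowest oocyte of set Young_WT__246. Gm47119 lies within Ttbk1 and shares its reads, and it fell by 4.60 on the log2 scale, with 0.721 and 0.733 CPM in old sets against 17.7 CPM in the young set (adjusted p = 0.010).

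Gm15691 lies beside Pxdn on chromosome 12. It had 3 counts over old oocytes and 423 over young ones, an old-to-young CPM ratio of 0.00896 (interval 0.00184 to 0.0264, adjusted p = 0.0175). Gm8605 and Gm7104, a neighbouring pair of predicted genes, had 0 counts in old oocytes and 410 and 400 in young ones, and so were at least 108-fold and 105-fold lower in old oocytes. Gm10323 was lower in old oocytes without being absent. It stood at 3.20 to 18.2 CPM over old oocytes and 19.3 to 91.4 CPM over young ones, with no overlap (log2 change −2.50 ± 0.40, adjusted p = 0.0398). These predicted genes have no role that is known well enough to state. Gm15691, Gm8605, Gm10323, Gm47119 and Ttbk1 are the 5 lower genes that were also called without the 3 oocytes, and each lost its call when either old set was left out. Chosen after its values were seen, Tcf4, a basic helix-loop-helix transcription factor, had 0.670 and 0.995 CPM in old sets against 6.95 CPM in the young set (log2 change −3.03 ± 0.44, adjusted p = 0.0254).

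The third kind of called gene fell in old oocytes through a few young oocytes in which it was high. It held 8 of the 79 cytosolic ribosomal protein genes tested and 4 of the 75 nuclear respiratory chain genes tested, beside 0.214% of all genes called lower, and all 12 lost their call without the 3 oocytes. Rps29, a small-subunit protein, stood at 5.15, 13, 9.89, 25.6 and 8.25 CPM in set Old_WT_365 and ran from 6.34 through 10.1 to 13.3 CPM in set Old_WT_247. In the young set it reached 81.1 CPM in Young_WT__246_10, 421 CPM in Young_WT__246_11 and 69.2 CPM in Young_WT__246_15, and ran from 5.61 through 9.12 to 29.2 CPM in the other 11. Those 11 covered nearly the whole old range. The log2 change was −2.78 ± 0.37 with an adjusted p of 0.0173 in edgeR, and −0.22 with an adjusted p of 0.920 without the 3 oocytes. Rps26 differed from this pattern, since old oocytes ran from 9.27 through 19.3 to 27.3 CPM and the other 11 young oocytes from 15.4 through 41.5 to 57.2 CPM. Its log2 change was −2.23 ± 0.29 (adjusted p = 0.0173), and −1.18 with an adjusted p of 0.248 without the 3 oocytes.

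Oocyte Young_WT__246_11 held the highest level of most of these transcripts. Cox7c, a subunit of cytochrome c oxidase, ran from 0.488 through 1.33 to 2.97 CPM in old oocytes. It stood at 139 CPM in young oocyte Young_WT__246_11, at 4.92 CPM in Young_WT__246_10 and at 6.53 CPM in Young_WT__246_15, and ran from 0.934 through 1.54 to 6.42 CPM in the other 11 young oocytes. The log2 change of −3.91 ± 0.58 (adjusted p = 0.0272) became −0.78 (adjusted p = 0.802) without the 3 oocytes. Cox17, the copper chaperone of the same enzyme, ran from 1.24 to 7.10 CPM in old oocytes, against 355 CPM in Young_WT__246_11, 3.69 CPM in Young_WT__246_10 and 12.5 CPM in Young_WT__246_15. It fell by 4.05 on the log2 scale (adjusted p = 0.00928, and 0.900 without the 3 oocytes), and Gm21987, which overlaps it, had almost the same counts. Rpl38 (log2 change −4.49, adjusted p = 0.010), Rps27a (−3.71, adjusted p = 0.0111) and Atp5k, a subunit of the ATP synthase (−2.57, adjusted p = 0.0150), were also highest in Young_WT__246_11, at 83.7, 93.7 and 172 CPM. Without the 3 oocytes their adjusted p-values were 0.642, 0.751 and 0.894. Ribosomal protein genes have many near-identical copies in the genome, and multi-mapped reads were counted, so that single members are uncertain.

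The same 3 oocytes carried other called genes at more even levels, named after their values were seen. Ddx18, a nucleolar RNA helicase, ran from 68.3 through 111 to 144 CPM in old oocytes. It stood at 568.1, 590 and 935 CPM in Young_WT__246_10, Young_WT__246_11 and Young_WT__246_15 and at 97.6 through 138 to 301 CPM in the other 11 young oocytes. Nmt1, which attaches myristate to proteins and whose gene overlaps Dcakd, had a median of 20.4 CPM in old oocytes, against 132, 153 and 224 CPM in the 3 young oocytes and a median of 21.5 CPM in the other 11. Polr2i, an RNA polymerase II subunit whose gene overlaps Tbcb, had a median of 19.5 CPM in old oocytes, against 118, 218 and 195 CPM in the 3 and a median of 22 CPM in the other 11. These genes were high in all 3 oocytes, where Cox7c and Cox17 were high mainly in 1.

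Summed over the whole list, ribosomal protein transcripts ran from 939 through 1400 to 2037 CPM over the old oocytes. They held 3944, 7951 and 4935 CPM in young oocytes Young_WT__246_10, Young_WT__246_11 and Young_WT__246_15, and ran from 948 through 1267 to 2178 CPM over the other 11. The 3 oocytes were set apart for their ribosomal protein transcripts, so their levels in this sum, and those of the other 11, describe that choice. Respiratory chain transcripts ran from 2141.8 through 3083 to 4282 CPM over old oocytes, held 5107, 6708 and 5509 CPM in the 3, and ran from 2565 through 2900 to 3507 CPM over the other 11. Mitochondrially encoded transcripts took a median of 0.893% and 0.903% of counts in the old sets and 0.927% in the young set, and 1.45%, 1.40% and 1.37% in the 3 oocytes. The cumulus markers summed to 41.2, 46.4 and 32.3 CPM in the 3, within the range of the other oocytes, and Young_WT__246_11 had the largest total of its set. The part of depth and of these summed levels in the calls was not tested beyond leaving the oocytes out.

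**Figure D2:**
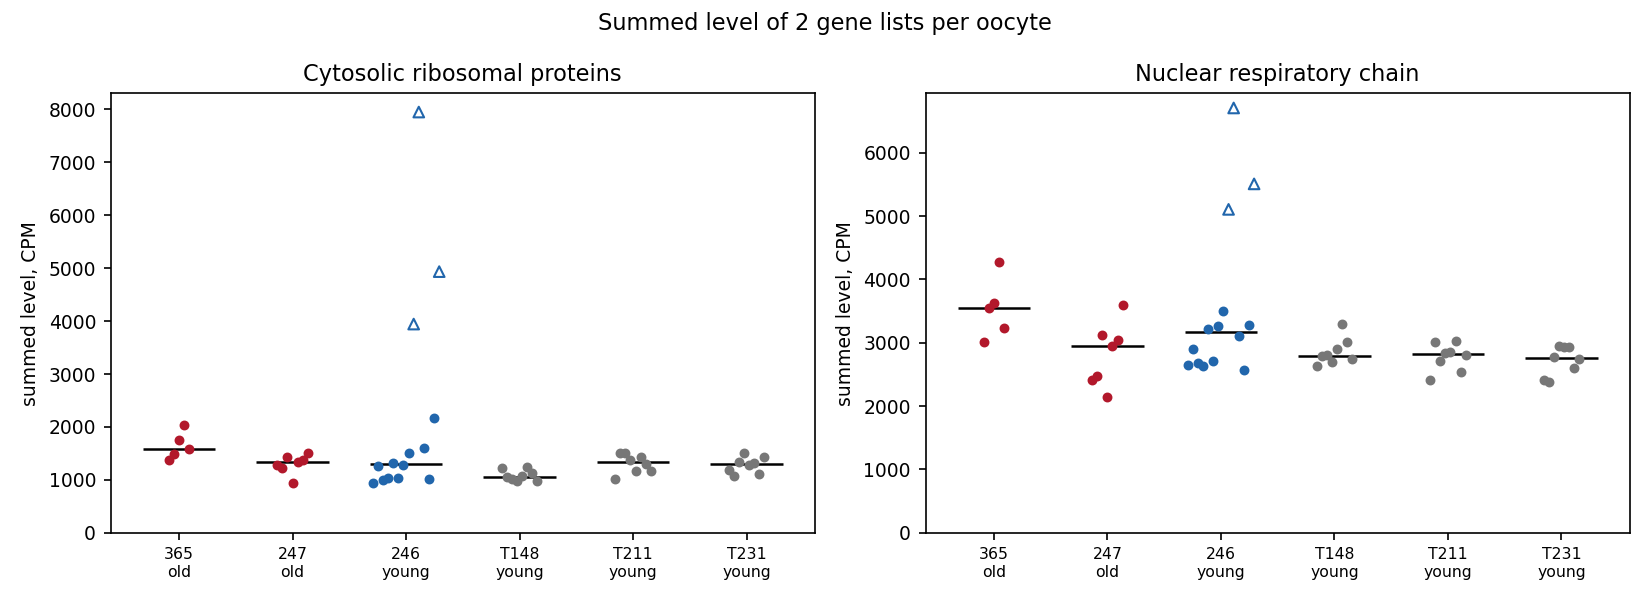
Summed CPM of cytosolic ribosomal protein genes and of nuclear respiratory chain genes in each oocyte, by set, with old WT sets left of set Young_WT__246 and the T-series young sets; open triangles are Young_WT__246_10, Young_WT__246_11 and Young_WT__246_15. For ribosomal protein genes the old oocytes reach 2037 CPM at most, and the 3 triangles, set apart for their ribosomal protein transcripts, lie at 3944 to 7951 CPM.

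The T-series young sets lay nearer to the old sets than to set Young_WT__246 for nearly all called genes, though not always at the old level. For all 15 higher genes and for 29 of the 30 lower genes, each of the 3 T-series sets was nearer on the log scale to the old sets than to set Young_WT__246. Over all 14033 genes tested the same held for 5857 genes (41.7%). Tmem222 had 8.89, 14.5 and 8.37 CPM in T148, T211 and T231, above the 4.48 and 3.69 CPM of the old sets, and Tex15 had 21.2 CPM in T148, below the 57.1 and 72.3 CPM of the old sets. The 1 called gene for which it did not hold was 1700034K08Rik, at 4.69 and 5.61 CPM in old sets, 47.7 CPM in set Young_WT__246 and 10.2, 17.3 and 8.26 CPM in the T-series sets. All 16 genes called without the 3 oocytes had all 3 T-series sets nearer to the old sets. Called genes were chosen by the distance of the old sets from set Young_WT__246, and the T-series sets lend the fit their spread. Genes on which the T-series sets disagree pass less easily, so the shares of called genes and of all genes are not like for like. The T series comes from the other count table, so that its levels stand side by side with those of the numbered sets and add no test of age.

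**Figure D3:**
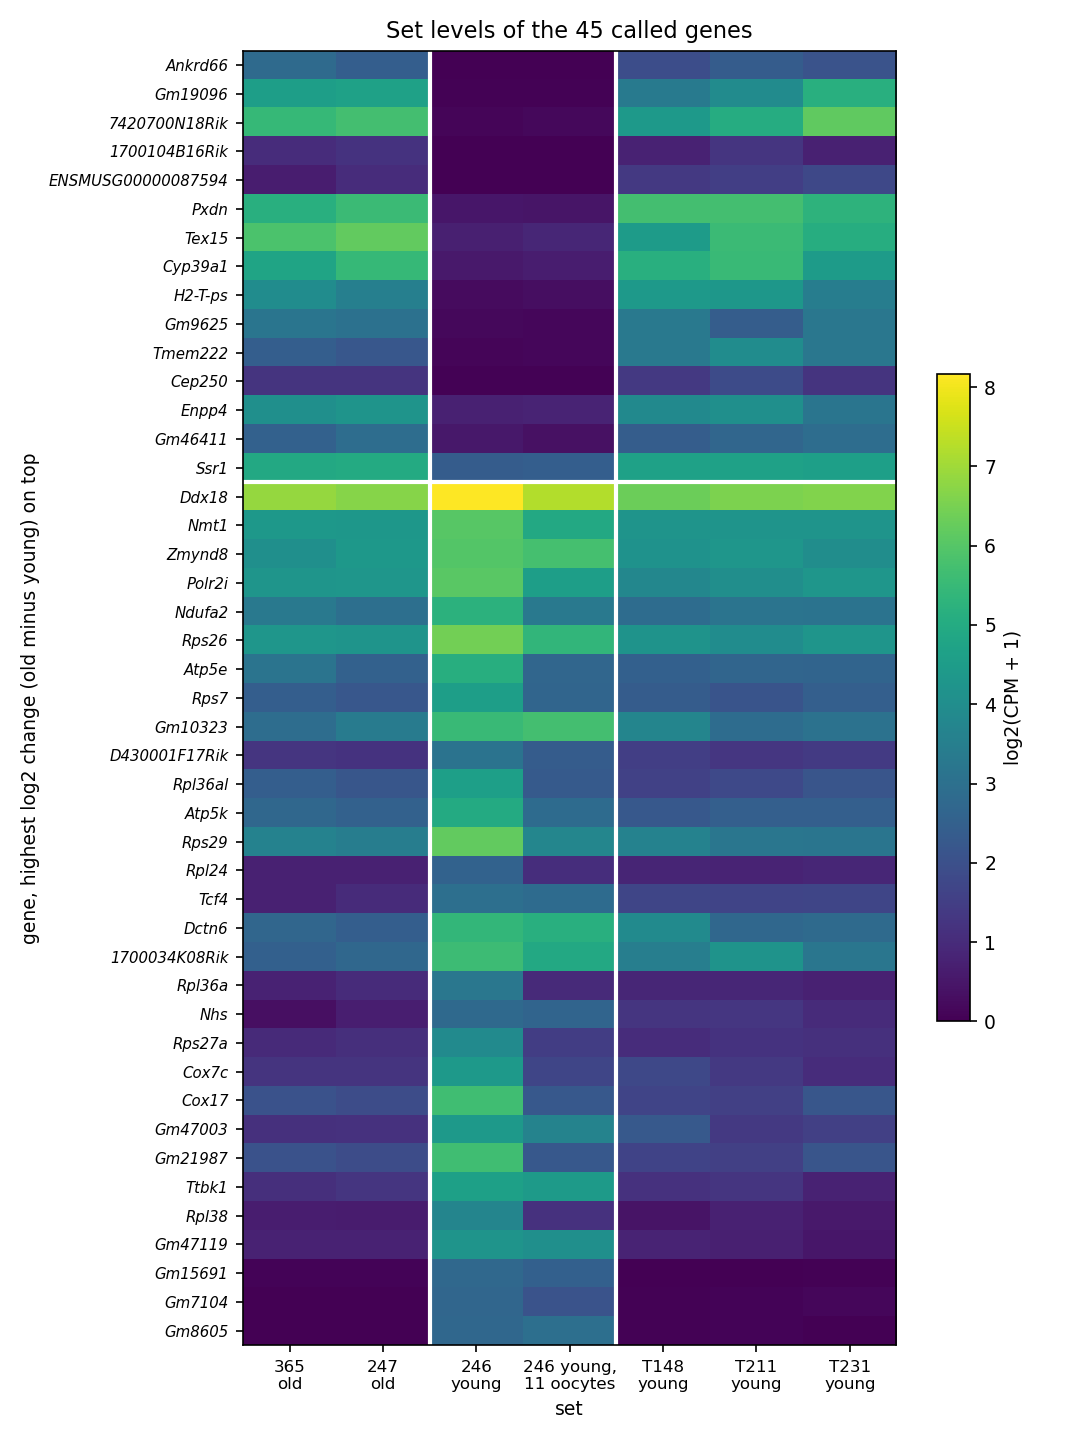
Levels of the 45 called genes as log2(CPM + 1), 1 row per gene, in sets Old_WT_365 and Old_WT_247, set Young_WT__246 with all 14 and with 11 oocytes, and young T-series WT sets T148, T211 and T231. The T-series columns are nearer to the old columns than to set Young_WT__246 in nearly every row, and the ribosomal and respiratory rows fade in set Young_WT__246 when the 3 oocytes are left out.

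Called genes often lay close together. Of the 45, 24 had another called gene starting within 5 Mb (53.3%), against 14.1% of all genes tested that had a called gene other than themselves within that distance. Of the 16 genes called without the 3 oocytes, 14 had such a neighbour. On chromosome 17, chr17:43534174-46487675 held 30 tested genes, of which Ankrd66, Cyp39a1 and Enpp4 rose in old oocytes and Ttbk1 and Gm47119 fell. On chromosome 8, chr8:31378813-34108796 held 18 tested genes, of which 7420700N18Rik, Gm19096, Tex15 and 1700104B16Rik rose and Dctn6 fell. On chromosome 12, chr12:28630854-30062113 held 10 tested genes, of which Pxdn rose and Gm15691 and Rps7 fell. On chromosome 13, Gm9625 rose and Gm47003 and Gm10323 fell within chr13:64291077-67811200, among 54 genes tested there of which 11 had a log2 change above 1 and 26 one below −1. Over all genes tested, 5.02% had a log2 change above 1 and 10.4% one below −1. Of the 45 called genes, 17 overlap another tested gene, so some neighbours share reads.

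Single oocytes were also compared without a test, by asking for which genes the ages did not overlap. Of 9243 genes with a mean of at least 5 CPM, all 12 old oocytes lay above all 14 young ones for 61 (0.66%) and below them for 58 (0.628%). Without the 3 oocytes the counts were 74 higher (0.814%) and 81 lower (0.891%) of 9094 genes. Of the 119 genes, 20 were also called, beside 0.321% of all 14033 genes tested. For 75 of the 119 all 3 T-series sets were nearer to the old sets, beside 5857 of all genes tested (41.7%). For 2 of them no T-series set was nearer, beside 1875 of all genes tested. The 119 were chosen by the distance of old oocytes from set Young_WT__246, so these shares are not like for like. None of the 119 genes lay outside the range of all 38 young WT oocytes when the T series was counted in, and neither did any other gene tested.

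Some of the genes with the widest gap between the ages varied as widely among the T-series sets. AY512915 had 38.7 and 47.5 CPM in old sets against 0.646 CPM in set Young_WT__246, and 0.727, 62.9 and 0.737 CPM in T148, T211 and T231. Its log2 change of 6.05 ± 3.18 did not pass the test (adjusted p = 0.498), and the young sets of both series alone spanned both levels. Ighg3, an immunoglobulin heavy chain constant region gene, had 0.258 and 0.0262 CPM in old sets against 12.8 CPM in set Young_WT__246, and 24.1, 0.0668 and 0.184 CPM in the T series (adjusted p = 0.368). The predicted genes Gm7896 (log2 change −4.63, adjusted p = 0.0929), Gm10772 (−6.10, adjusted p = 0.141) and Gm26768 (−3.28, adjusted p = 0.0675, overlapping Dctn6) and 9130015A21Rik (−6.39, adjusted p = 0.0877) were lower in every old oocyte without passing the test. Cachd1, an auxiliary protein of voltage-gated calcium channels, had 10.8 and 14.8 CPM in old sets against 0.206 CPM in set Young_WT__246 and 9.02, 14.3 and 13.6 CPM in the T series (adjusted p = 0.303).

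Pairs of single sets show how far 2 sets differ with and without a difference in age. Set Old_WT_365 differed from set Young_WT__246 by more than 2-fold at 8.71% of 9206 genes (218 higher, 584 lower in old), and set Old_WT_247 from set Young_WT__246 at 13.4% of 9324 genes (358 higher, 893 lower). The sets Old_WT_365 and Old_WT_247 differed from each other at 6.43% of 9045 genes. Among the T-series young sets the shares were 7.38% for T148 and T211, 5.62% for T148 and T231, and 4.58% for T211 and T231. Without the 3 oocytes the shares were 8.75% for Old_WT_365 and Young_WT__246 and 11.6% for Old_WT_247 and Young_WT__246. Both pairs of different age thus exceeded every same-age pair within a naming series, and Old_WT_365 and Young_WT__246 exceeded T148 and T211 by little. Across the naming series, in pairs added after seeing the data, Young_WT__246 differed from T148, T211 and T231 at 11.4%, 16.2% and 12.7% of genes without a difference in age.

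**Figure D4:**
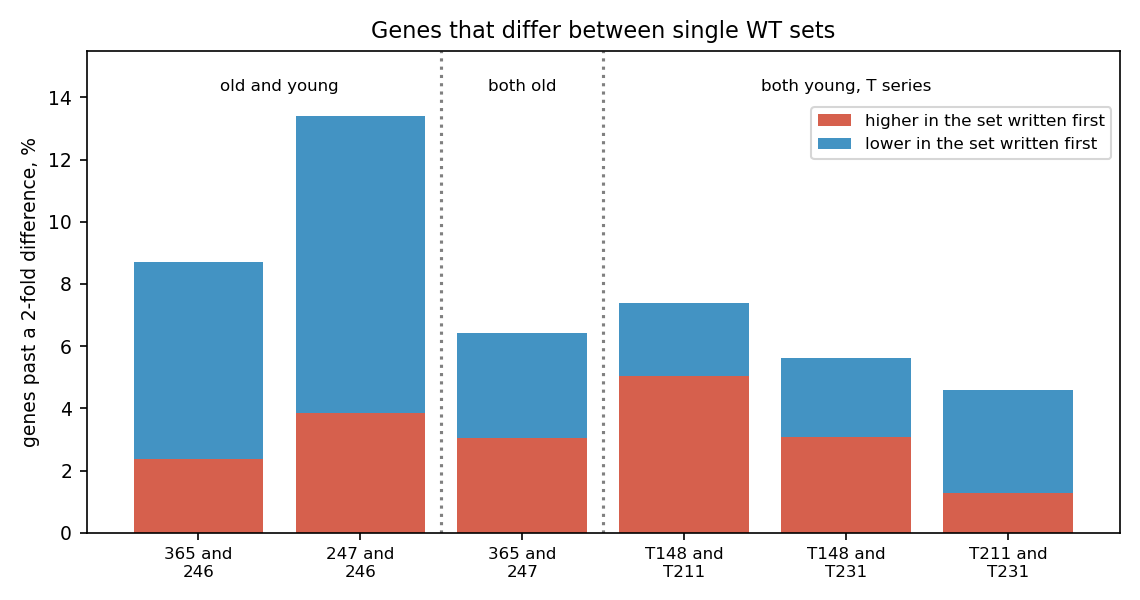
Percent of genes past a 2-fold difference between single sets, with old-against-young pairs first and same-age pairs after them, each bar split into genes higher and lower in the first set. The pairs of different age reach 8.71% and 13.4%, and the same-age pairs within a naming series 4.58% to 7.38%.

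Chromosome segregation genes, which include the cohesin and checkpoint proteins that decline with age in mouse eggs, held no called gene. Of 22 cohesin genes tested, 17 were higher and 5 lower in old oocytes (13 and 9 without the 3 oocytes). The median log2 change was 0.26 (0.12 without the 3 oocytes), beside −0.01 over all genes tested. Their summed level had medians of 6133 and 5093 CPM in sets Old_WT_365 and Old_WT_247 and 6131 CPM in set Young_WT__246. In the young sets T148, T211 and T231 the medians were 6478, 5605 and 5976 CPM. Stag2, a cohesin subunit, had 53.8 and 54.3 CPM in old sets against 25 CPM in the young set, and every old oocyte lay above every young one. Its log2 change was 1.11 ± 0.32 with an adjusted p of 0.252, and the T-series sets held 31.2, 43.3 and 28.2 CPM. Wapl, which releases cohesin, stood at 0.66 ± 0.28 (adjusted p = 0.415), and Pttg1, the separase inhibitor securin, at −0.82 ± 0.36 (adjusted p = 0.422).

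Of 23 spindle checkpoint and chromosomal passenger genes, 21 were higher and 2 lower (18 and 5 without the 3 oocytes). The median was 0.32 (0.30 without the 3 oocytes), with no call. The list's summed level had medians of 5476 and 5693 CPM in sets Old_WT_365 and Old_WT_247 and 4116 CPM in set Young_WT__246. In the young sets T148, T211 and T231 the medians were 5158, 5986 and 5975 CPM. Aurkc, the germ-cell passenger kinase, ran from 527 through 572 to 843 CPM in set Old_WT_365 and from 441 through 594 to 785 CPM in set Old_WT_247. The young oocytes of set Young_WT__246 ran from 74.9 through 144 to 205 CPM, below every old oocyte. The T-series sets disagreed among themselves, with 143 CPM in T148 and 817 and 809 CPM in T211 and T231, and the log2 change of 2.14 ± 0.83 did not pass the test (adjusted p = 0.375). Ttk, a checkpoint kinase, stood at 0.84 ± 0.27 (adjusted p = 0.288) and Plk1, a mitotic and meiotic kinase, at 0.56 ± 0.24 (adjusted p = 0.409). Kinetochore genes were higher for 25 of 33 (median 0.19), led by Knl1, a kinetochore scaffold (0.78, adjusted p = 0.400), while Cenpp (−0.50, adjusted p = 0.553) and Cenpq (−0.60, adjusted p = 0.568) were lower. Spindle assembly genes were higher for 25 of 32 (median 0.30, and 0.14 without the 3 oocytes), with the motor genes Kif11 at 0.82 (adjusted p = 0.375) and Kif18a at 0.67 (adjusted p = 0.368) and the midzone bundler Prc1 at 0.70 (adjusted p = 0.441).

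Of 31 meiotic recombination genes tested, 26 were higher and 5 lower, with a median of 0.45 (0.36 without the 3 oocytes). Tex15 was the 1 gene called, beside 0.107% of all genes. The list's summed level had medians of 1569 and 1649 CPM in sets Old_WT_365 and Old_WT_247 and 1211 CPM in set Young_WT__246. In the young sets T148, T211 and T231 the medians were 1508, 1651 and 1646 CPM. Ccdc36, a partner of the machinery that makes meiotic breaks, stood at 0.79 (adjusted p = 0.430). DNA double-strand break repair genes were higher for 38 of 47 (median 0.25) and for 25 of 47 without the 3 oocytes (median 0.10), with the recombinational repair genes Rad51c at 1.2 ± 0.44 (adjusted p = 0.356) and Xrcc2 at 0.90 ± 0.30 (adjusted p = 0.301).

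Genes that govern meiotic arrest and the stored RNA also held no call. Of 41 maturation genes, 25 were higher (median 0.12), among them Anapc4 at 0.61 (adjusted p = 0.353), while Anapc2, another subunit of the anaphase-promoting complex, stood at −1.02 (adjusted p = 0.361) and the kinase Rps6ka1 at −1.01 (adjusted p = 0.277). Of 36 genes of maternal RNA translation and decay, 23 were higher (median 0.20). Marf1, an RNase that protects mouse oocytes from retrotransposons, stood at 0.76 ± 0.25 (adjusted p = 0.295), the RNA granule protein gene Lsm14b at −0.65 (adjusted p = 0.434) and the oocyte cap-binding protein gene Eif4e1b at −0.56 (adjusted p = 0.441). Maternal effect genes, whose products the embryo needs from the egg, were lower for 15 of 23 (median −0.15). Padi6, of the cytoplasmic lattices, ran from 965 through 1120 to 1729 CPM in set Old_WT_365 and from 312 through 1258 to 1544 CPM in set Old_WT_247, against 1810 through 2918 to 6234 CPM in the young set. All old oocytes lay below all young ones, and T-series oocytes ran from 1316 through 1863 to 3579 CPM, across the gap. Its log2 change of −1.43 ± 0.50 did not pass the test (adjusted p = 0.329), nor did those of Nlrp4f (−0.94, adjusted p = 0.353) and Atg5, an autophagy gene (0.96, adjusted p = 0.399).

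Zona, fusion and egg activation genes were lower for 14 of 23 (median −0.17), with the secreted oocyte protein genes Oosp1 at −0.67 (adjusted p = 0.316) and Oosp2 at −0.59 (adjusted p = 0.602) and the phospholipase gene Plcg1 at −1.03 (adjusted p = 0.581). DNA methylation and demethylation genes were lower for 15 of 22 (median −0.27, and −0.24 without the 3 oocytes). Dnmt3a, the de novo methyltransferase of growing oocytes, had 189 and 217 CPM in old sets against 430 CPM in the young set, and 240, 245 and 239 CPM in the T-series sets. Its log2 change was −1.08 ± 0.30 with an adjusted p of 0.245. Trim28, a corepressor that protects imprints, stood at −0.59 (adjusted p = 0.495) and Dppa3, which shields the maternal genome from demethylation, at −0.77 (adjusted p = 0.592). Tet1, Tet2 and Tet3 oxidise 5-methylcytosine. Tet3, the family member long known for its role in mouse zygotes, had 691 and 759 CPM in old sets against 703 CPM in the young set (log2 change 0.04 ± 0.25, adjusted p = 0.964), and its sign turned without set Old_WT_247. Tet1 had 1.13 and 1.57 CPM in old sets against 3.43 CPM in the young set (−1.33 ± 0.58, adjusted p = 0.423), and Tet2 had 3.25 and 4.56 CPM against 1.57 CPM (1.32 ± 0.55, adjusted p = 0.410). Histone modification genes were split 18 to 18 (median −0.00), with Suv39h1 at 0.68 (adjusted p = 0.467), Sirt6 at 0.53 (adjusted p = 0.492) and Hdac4 at −0.56 (adjusted p = 0.526).

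The 3 oocytes were set apart for their ribosomal protein transcripts, so the shift of that list without them follows from the choice and is a description. Of 79 ribosomal protein genes tested, 73 were lower in old oocytes with a median log2 change of −1.18 and 8 called lower, beside 0.214% of all genes. Without the 3 oocytes 53 of 76 were higher, with a median of 0.13 and no call. Of 75 respiratory chain genes, 58 were lower (median −0.68) and 4 were called lower, against the same 0.214%. Without the 3 oocytes 51 of 72 were higher (median 0.19) with no call. Ndufa2, a complex I subunit, had 8.81 and 6.89 CPM in old sets against 36.8 CPM in the young set (log2 change −2.23 ± 0.34, adjusted p = 0.0331), and its change was −0.18 (adjusted p = 0.935) without the 3 oocytes. The 13 genes of the mitochondrial genome had a median of −0.10, and 0.17 without the 3 oocytes, with mt-Nd3 at −0.82, mt-Co3 at −0.60 and mt-Co2 at −0.37 (adjusted p = 0.525, 0.547 and 0.639).

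**Figure D5:**
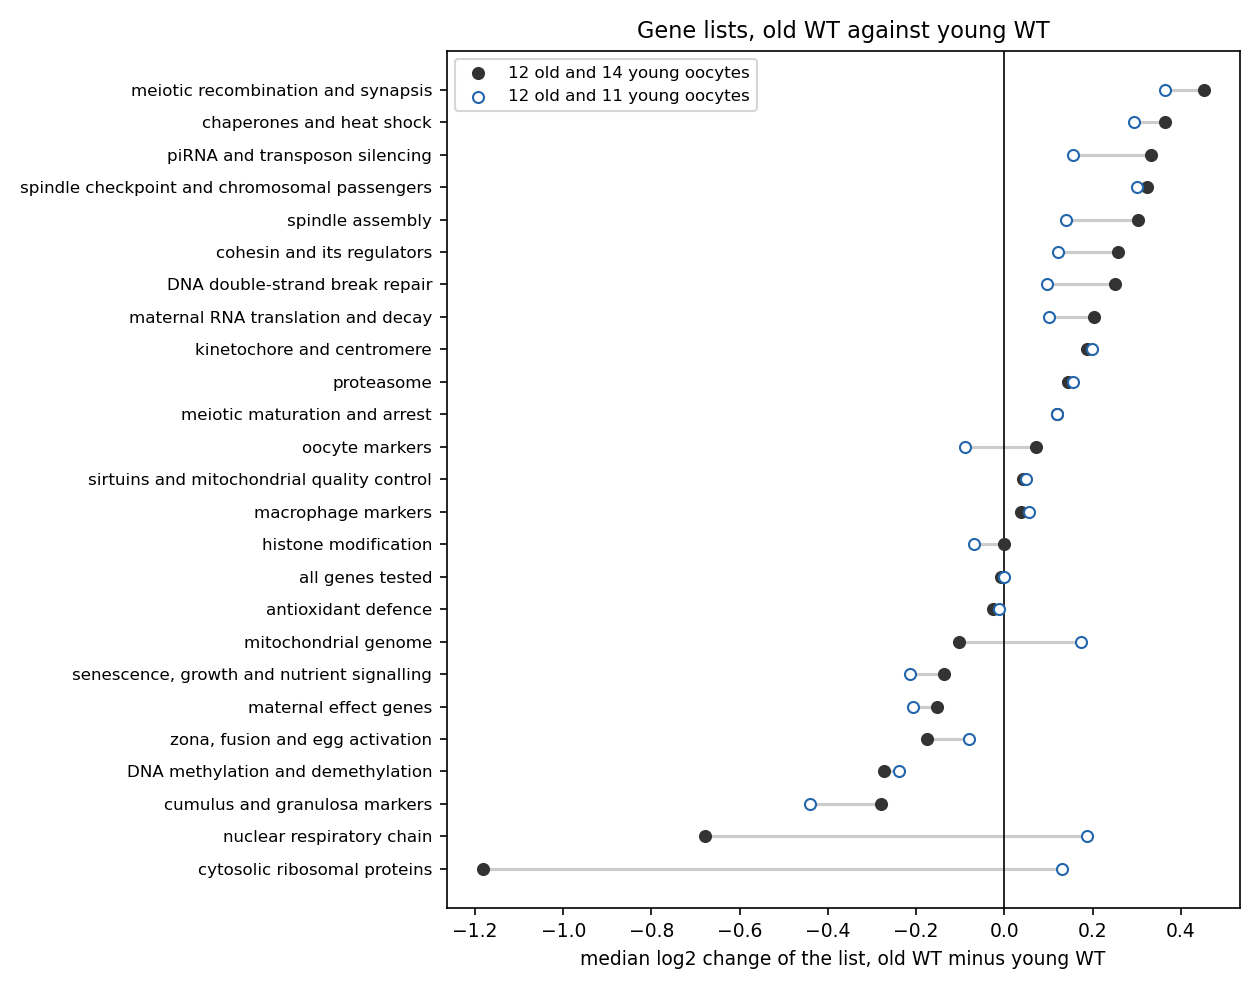
Median log2 change (old minus young) of each gene list with all 14 young oocytes (filled) and without Young_WT__246_10, Young_WT__246_11 and Young_WT__246_15 (open). The ribosomal protein list goes to 0.13 without the 3 oocytes, against −1.18 with them, and the respiratory chain list to 0.19, against −0.68.

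The stress, mitochondrial upkeep and proteasome lists held no call. Chaperone and heat shock genes were higher for 25 of 32 (median 0.36, and 0.29 without the 3 oocytes), with Hspa8, a constitutive HSP70, at 0.90 ± 0.32 (adjusted p = 0.335) and Calr, a calcium-binding chaperone of the endoplasmic reticulum, at 0.94 ± 0.34 (adjusted p = 0.345). Pdia6, a protein disulphide isomerase, went the other way, with 67.6 and 64.9 CPM in old sets against 271 CPM in the young set and no overlap between oocytes (−2.03 ± 0.49, adjusted p = 0.160). Its T-series sets held 68.6, 200 and 185 CPM, which is at the old level in 1 of them and between the ages in the others. Antioxidant genes were lower for 14 of 26 (median −0.03), with the peroxiredoxin genes Prdx6 at 1.15 (adjusted p = 0.521) and Prdx5 at −0.55 (adjusted p = 0.447) and the quinone reductase gene Nqo1 at −0.45 (adjusted p = 0.597). Sirtuin and mitochondrial quality control genes had a median of 0.04, with the mitochondrial fusion gene Mfn1 at −1.38 (adjusted p = 0.277) and the coactivator gene Ppargc1b at −0.66 (adjusted p = 0.444).

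Proteasome genes were higher for 19 of 34 (median 0.14), with Psmc1 at −0.90 (adjusted p = 0.415), Psme3 at −0.93 (adjusted p = 0.432) and Psmc3 at −0.70 (adjusted p = 0.464). Genes of the piRNA pathway and transposon silencing were higher for 14 of 23 (median 0.33, and 0.16 without the 3 oocytes), with Tex15, also counted in the recombination list, the 1 call beside 0.107% of all genes called higher, and Gtsf1, a piRNA pathway factor, at −1.14 ± 0.33 (adjusted p = 0.254). Senescence, growth and nutrient signalling genes were lower for 23 of 32 (median −0.14). Foxo1, a transcription factor held back by insulin signalling, had 223 and 177 CPM in old sets against 410 CPM in the young set and 193, 160.5 and 164 CPM in the T series (−1.04 ± 0.23, adjusted p = 0.134, and 0.0918 without the 3 oocytes). Terf2, of the telomere-protecting shelterin complex, stood at −0.70 (adjusted p = 0.418) and the lamin gene Lmna at −0.60 (adjusted p = 0.517).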

How the data were processed

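Single-oocyte RNA-seq libraries were analysed from the deposited counts, which are raw read counts per gene. Per the file headers, the authors counted with featureCounts 1.6.2 on GENCODE mouse release 17, with pairs counted as fragments, a mapping quality of at least 30, multi-mapped reads included, every overlapping gene credited and no strand used. The submitters' processing notes list HISAT2, SAMtools and mm10. Reads of overlapping genes, antisense pairs and near-identical copies therefore cannot be told apart. Gene names came from GENCODE release 21 (53620 of 53715 IDs matched), and 39 count columns of no described sample were not used.

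Counts were summed over the oocytes of a set and fitted with edgeR 4.0.16's quasi-likelihood test (R 4.3.3, TMM scaling, 13 sets, 8 group means, 5 residual degrees of freedom). The 14033 genes with at least 1 CPM (counts scaled to a common library size) in 1 of the 3 sets compared were tested, with Benjamini-Hochberg adjustment and a threshold of 0.05. The common biological coefficient of variation was 0.310, and log2 changes are old minus young. Standard errors were taken from the change and its F statistic. A gene with 0 counts in a group has a bound computed against 3 counts summed over that group. Ratios at 1 to 3 counts have 95% exact Poisson intervals, and both cover counting error only. CPM values are scaled by TMM. The code was tested on simulated data.

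The text names the 12 genes of smallest p in each direction and the Tet genes. It also names 8 genes per direction with the widest gap between non-overlapping oocytes, and 3 members per pathway list. A few genes that this rule names are not reported here. The members and lists were chosen with earlier results of these data known. Alternatives included DESeq2 1.42.0, limma 3.58.1, other scalings and filters, and leaving out sets or oocytes. Figures were drawn with matplotlib 3.10.9 under Python 3.11.15 with pandas 2.3.3, NumPy 2.4.6 and SciPy 1.17.1.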

Additional observations from a re-analysis of the deposited data

Results flagged for a closer look

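Oocyte Old_WT_247_1 of set Old_WT_247 had a library total of 10362312 counts, far from the other 6 oocytes of its set, which had 3728315 to 5615562. It was the 1 value to stand apart of 28 groups tested for a single high or low sample, where chance flags about 1 group in 20. These groups came from sets Old_WT_365 and Old_WT_247 only, and the oocytes of set Young_WT__246 were not tested in this way. Leaving out set Old_WT_247, which holds it, leaves 1 old set, as does leaving out set Old_WT_365. A fit without this oocyte alone was not run, so its part in the calls was not tested.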

How the results depend on the processing

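Against 45 calls (15 higher, 30 lower), 16 were made without the 3 young oocytes, 21 without Young_WT__246_11, 24 by limma (15 higher, 9 lower), 8 with an added naming-series term (3 higher, 5 lower), 261 by DESeq2 (85 higher, 176 lower) and 438 without a filter on low counts (125 higher, 313 lower). Leaving out an old set gave 5 to 13. Counts within 1.5 times were 42 with the 6 numbered sets, 46 with the 3 WT sets, 52 with RLE size factors, 30 with library totals (13 higher, 17 lower) and 38 at a minimum of 5 CPM. Similar totals did not always hold the same genes. Only 24 of the 45 were called with the 6 numbered sets, and 24 with the 3 WT sets. These 2 fits leave out the T-series sets. Limma called 20 of the 45, and the naming-series fit 6. Library totals kept 30 and the minimum of 5 CPM kept 36. All 45 were called by DESeq2, with RLE and without a filter. Under settings chosen after seeing the data, leaving out the 3 oocytes gave 17 with library totals, 13 with RLE, 14 also without set Old_WT_365 and 4 also without set Old_WT_247. The fit with the naming-series term pooled T148, T211 and T231 with set Young_WT__246 as 1 young WT group. Its contrast of ages therefore also draws on the T-series levels and differs from that behind the 45 calls. In it the log2 change of Pxdn was 0.92 ± 6.89 (adjusted p = 0.964 in edgeR). Pxdn had 51.8, 51.8 and 37.9 CPM in T148, T211 and T231, against 0.398 CPM in set Young_WT__246. The part of the pooling in this change was not tested.

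Non-overlapping genes, 119 in all, were 306 to 416 without an old set, which has fewer samples. With CPM from library totals 133 did not overlap (87 higher, 46 lower, against 61 and 58). At a minimum of 20 CPM, pairs past 2-fold numbered 412 (Old_WT_365 and Young_WT__246), 692 (Old_WT_247 and Young_WT__246), 288 (Old_WT_365 and Old_WT_247), 383, 238 and 229 (T-series pairs), over fewer genes. Without the 3 oocytes the difference in mitochondrial share turned to 0.0453 percentage points, against -0.0288, and that in the top 50 genes was -2.98, against -4.34.

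List medians that moved without the 3 oocytes were cumulus (-0.44), cohesin (0.12), spindle assembly (0.14), double-strand break repair (0.10), mitochondrial genome (0.17), respiratory chain (0.19) and ribosomal proteins (0.13). Leaving out an old set moved cumulus (-0.54 to -0.10), kinetochore (0.075 to 0.14), double-strand break repair (0.15 to 0.39) and respiratory chain (-0.98 to -0.38). Library totals shifted the median of all genes to 0.070. Signs turned for Tet3 (-0.0047 at 5 CPM, -0.029 without set Old_WT_247) and, without the 3 oocytes, for Cenpq (0.35), Lsm14b (0.13), Oosp2 (0.0098), mt-Nd3 (0.058) and mt-Co2 (0.050). Of the named genes' alternatives, 1025 kept direction and side of the threshold, 103 lost the threshold, 32 gained it and 7 turned.

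No paired analysis was possible because set names are not shared between the ages. Genes under about 1 CPM rest on few counts per oocyte, and 1 young set leaves no spread of its own.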

Other observations

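Other sets of the series give levels of the called genes outside the comparison of ages. Set Young_Tet1-/-_201, 7 young Tet1 knockout oocytes of the same count table, resembled set Young_WT__246 for some of them. Ttbk1 had 18.1 CPM in set Young_Tet1-/-_201, against 1.13 and 1.39 CPM in sets Old_WT_365 and Old_WT_247 and 23.7 CPM in set Young_WT__246. Gm47119 had 14 CPM and Gm15691 had 3.90 CPM in set Young_Tet1-/-_201, against at most 0.733 CPM in either old set and 17.7 CPM and 5.81 CPM in set Young_WT__246. Tex15 had 3.46 CPM there, against 57.1 and 72.3 CPM in the old sets and 0.659 CPM in set Young_WT__246. Pxdn went the other way, with 25 CPM in set Young_Tet1-/-_201 and 0.398 CPM in set Young_WT__246. Among all 13 sets Pxdn was near 0 in 1 more, T146, 8 young Tet1 knockout oocytes of the T series, at 0.342 CPM. T146 also had 2.00 CPM of Gm15691, the neighbour of Pxdn, where T148, T211 and T231 had at most 0.0369 CPM. Ttbk1 in T146 stood at 0.683 CPM, near the old level. Levels like those of set Young_WT__246 were not confined to young sets. Gm10323 had 38.3 and 31.4 CPM in old Tet1 knockout sets Old_Tet1-/-_209 (5 oocytes) and Old_Tet1-/-_315 (1 oocyte) of the numbered table. It had 6.54 and 9.46 CPM in the old WT sets and 45.5 CPM in set Young_WT__246. In the same 2 knockout sets Ttbk1 (0.745 and 0.418 CPM) and Pxdn (42.1 and 64.9 CPM) were nearer to the old WT sets. These levels were looked at after the results were known and were not tested.

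Each numbered WT set was also set against the T-series young sets, which was added after seeing the data. The share of genes past a 2-fold difference was 5.62%, 10.3% and 7.53% for set Old_WT_365 against T148, T211 and T231. It was 6.08%, 4.74% and 4.46% for set Old_WT_247. For set Young_WT__246 the shares stand with the other pairs above, and each was higher than those of both old sets against the same T-series set.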
